A study of Mus musculus with 2 samples.

Results

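Genes with alternative promoters that both carry H3K4me3 were followed here in mouse bone marrow-derived macrophages, cells grown from marrow progenitors in culture. A gene was taken when at least 2 of its annotated transcript starts lay over 3 kb apart and each lay within 1 kb of a different H3K4me3 domain, with no start of another protein-coding gene within 1 kb of those starts. The rule was met by 438 of 21938 protein-coding genes. Among the 9999 coding genes with 2 usable starts over 3 kb apart, these are 4.38%, and they make up 4.81% of the 9102 coding genes with any usable start at a domain. They hold 933 marked promoters, since 387 genes had 2, 45 had 3 and 6 had 4.

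The series measured trimethylation of lysine 4 on histone H3 by chromatin immunoprecipitation and sequencing in 1 group, unstimulated macrophages of the mouse strain C57BL/6J, with 2 biological replicates and no treatment, mutant or second cell type to set them against. The labels record neither age nor sex and list 2 cell preparations under 1 donor entry, so p-values or spreads over them could measure technical variation alone. A domain is a run of peaks of the authors' replicated peak list joined where they lie within 1 kb of each other, and its fold is that of its highest peak. The genes were selected on the positions of these peaks, so their marking is no finding, and with 1 group every value is a description with no test. The labelled cell type was checked against its markers: 10 of 10 macrophage marker genes had a domain, among them Csf1r, Adgre1 and Mertk, while 0 of 4 marker genes did for each of T cells, B cells, granulocytes and fibroblasts. Of 4 erythroid markers, 2 had a domain.

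Many mammalian genes are transcribed from more than 1 promoter, and the choice sets the first exon of the messenger RNA. Where the start codon lies in that exon the protein begins differently, whereas a shared start codon leaves only the leader to change. H3K4me3 is laid down around active and poised starts, above all at CpG islands, stretches of DNA that have kept the CpG dinucleotide that most of the genome has lost to methylation. A peak has no strand and does not say how much RNA a start makes.

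Pairs of 200-base stretches ending just before a start show how far 2 promoters of a gene can differ in this respect. The 4 genes printed had the largest difference in CpG ratio between their promoters among the 2-promoter members named for known biology, for the most unequal widths or for the longest missing protein stretch, outside 1 chromosome whose sequence is not printed. The letters come from RefSeq's copy of GRCm38.p6 and are written 5′ to 3′ on the gene's strand, with each CpG in capitals. For Dnmt3a, a de novo DNA methyltransferase, they are chr12:3806830-3807029 before the first exon of Dnmt3a-201 and chr12:3860821-3861020 in intron 3 of that transcript, before Dnmt3a-208, both on the plus strand. For Tcf12, an E protein of the basic helix-loop-helix family, they are chr9:72111848-72112047 before Tcf12-202 and chr9:71896397-71896596 in its intron 8, before Tcf12-207, on the minus strand. For Actn4, an actin crosslinking alpha-actinin, they are chr7:28962341-28962540 before Actn4-201 and chr7:28907386-28907585 in its intron 8, before Actn4-206, on the minus strand. For Tfeb, a transcription factor of lysosomal genes, they are chr17:47736830-47737029 before Tfeb-202 and chr17:47769038-47769237 in its intron 1, before Tfeb-213, on the plus strand.
Dnmt3a upstream: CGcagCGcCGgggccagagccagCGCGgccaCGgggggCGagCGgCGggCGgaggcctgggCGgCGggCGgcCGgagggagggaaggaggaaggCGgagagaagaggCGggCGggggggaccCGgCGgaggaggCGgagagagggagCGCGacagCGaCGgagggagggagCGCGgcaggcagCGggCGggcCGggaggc
Dnmt3a downstream: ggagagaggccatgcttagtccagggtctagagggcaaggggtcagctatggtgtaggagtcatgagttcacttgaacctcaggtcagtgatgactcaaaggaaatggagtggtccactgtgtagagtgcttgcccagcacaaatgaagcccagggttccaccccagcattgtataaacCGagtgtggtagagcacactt
Tcf12 upstream: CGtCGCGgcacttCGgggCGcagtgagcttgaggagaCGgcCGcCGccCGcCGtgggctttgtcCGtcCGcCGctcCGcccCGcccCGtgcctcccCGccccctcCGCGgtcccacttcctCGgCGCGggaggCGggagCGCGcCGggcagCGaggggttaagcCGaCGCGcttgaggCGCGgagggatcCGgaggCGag
Tcf12 downstream: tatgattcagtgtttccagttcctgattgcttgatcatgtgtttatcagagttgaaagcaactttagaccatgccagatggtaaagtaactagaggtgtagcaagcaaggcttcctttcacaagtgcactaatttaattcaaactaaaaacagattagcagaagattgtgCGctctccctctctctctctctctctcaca
Actn4 upstream: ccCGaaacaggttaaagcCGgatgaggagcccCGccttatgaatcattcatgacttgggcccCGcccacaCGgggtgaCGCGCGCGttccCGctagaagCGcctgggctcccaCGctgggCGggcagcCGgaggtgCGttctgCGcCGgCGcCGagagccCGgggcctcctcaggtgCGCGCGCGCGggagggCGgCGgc
Actn4 downstream: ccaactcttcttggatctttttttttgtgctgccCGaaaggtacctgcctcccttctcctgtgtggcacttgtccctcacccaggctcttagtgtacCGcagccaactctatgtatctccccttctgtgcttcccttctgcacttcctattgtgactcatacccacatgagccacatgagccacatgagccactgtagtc
Tfeb upstream: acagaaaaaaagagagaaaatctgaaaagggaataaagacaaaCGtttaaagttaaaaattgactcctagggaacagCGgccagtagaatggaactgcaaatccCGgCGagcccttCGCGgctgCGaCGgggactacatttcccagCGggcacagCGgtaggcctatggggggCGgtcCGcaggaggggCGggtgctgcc
Tfeb downstream: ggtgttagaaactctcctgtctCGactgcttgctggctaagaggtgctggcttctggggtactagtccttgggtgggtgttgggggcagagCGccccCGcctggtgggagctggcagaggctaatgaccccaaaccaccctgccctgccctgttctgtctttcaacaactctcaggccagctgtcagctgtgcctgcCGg
Upstream against downstream, the stretches hold 29 and 1 CpG in Dnmt3a, 34 and 1 in Tcf12, 27 and 2 in Actn4, and 13 and 4 in Tfeb. All 8 starts lie within 1 kb of a domain by the rule, and the widths did not follow CpG content in every gene. The domain was wider at the CpG-rich upstream promoter in Tcf12 (2244 against 1923 bp) and Actn4 (3135 against 366 bp), and wider at the CpG-poor downstream promoter in Dnmt3a (936 against 1812 bp) and Tfeb (2128 against 2421 bp). The order was the same in both replicates for Dnmt3a and Tcf12, but in Tfeb the CpG-rich promoter was the wider in replicate 2, and Actn4's narrow domain was absent from replicate 2.

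Promoters of the 438 genes were a little narrower and of lower fold than those of the 8614 coding genes with 1 marked domain. Their widths ran from 308 to 8430 bp with a median of 1720 bp (933 promoters), against a median of 1904.5 bp at single-domain genes. The median fold was 16.6, against 24.9. The widest promoter of a member had a median of 2391 bp and the narrowest a median of 1060.5 bp, and the median ratio of widest to narrowest was 1.95. These are the extremes of each gene, so a gap between them is built in. Promoters of different genes were not paired for comparison. The genes are also long, with a median length of 76278 bp, against 34788 bp for the 5291 single-domain genes that have usable starts over 3 kb apart. They carry a median of 9 annotated transcripts, against 7 in the same single-domain genes. Beyond the marked starts, 258 members had a further usable start over 3 kb after the last marked promoter that was at no domain, and 39 had one over 3 kb before the first.

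In the 387 genes with 2 marked promoters, the wider domain was upstream somewhat more often than downstream, by a margin that depended on the list and the joining. The upstream domain was wider in 210 genes, 54.3% (95% Wilson interval 49.3 to 59.2, counting error only and with genes taken as independent), and the downstream domain in the others. Median widths were 1873 bp upstream and 1622 bp downstream. The median log2 ratio of upstream over downstream width was 0.12, and it had the other sign when peaks were not joined (-0.078) or when only the 10000 peaks of highest −log10 q were kept (-0.16). With the widest single peak in place of the joined domain, the upstream promoter was the wider in 49.4%. The upstream share was 55.9% (50.8 to 60.8) in the own list of replicate 1, 53.7% (48.1 to 59.1) in that of replicate 2 and 56.6% of 435 genes in the authors' pooled list. The upstream fold was the higher in 223 genes, 57.6% (52.6 to 62.4), with medians of 19.4 upstream and 14.6 downstream. That share was 57.8% (52.7 to 62.7) in replicate 1 and 54% (48.5 to 59.4) in replicate 2, where it was close to the share for width. In 298 genes, 77%, the wider domain also held the peak of higher fold. Distance between the starts did little to the split: the upstream domain was wider in 68 of 120 genes with starts under 10 kb apart, in 74 of 143 from 10 to 50 kb and in 68 of 124 beyond.

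Differences within a gene were often large. The 2 widths differed over 2 times in 170 genes, of which 102 had the wider domain upstream and 68 downstream, and over 4 times in 49, of which 30 and 19 did.

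**Figure D1:**
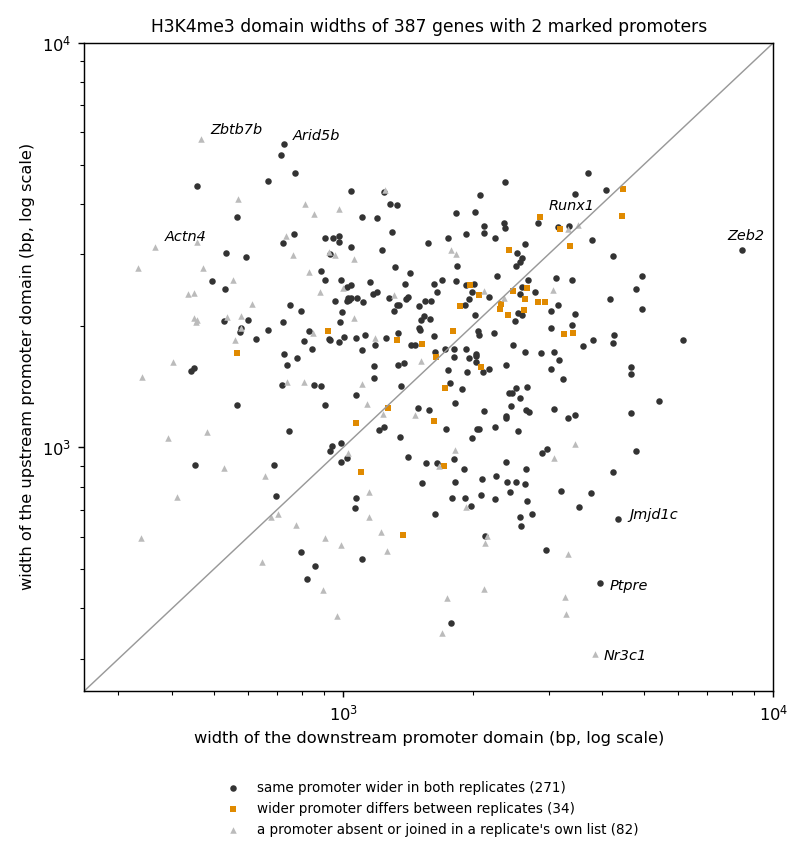
Each point is 1 of the 387 genes with 2 marked promoters, placed by the width of its upstream domain (vertical) and of its downstream domain (horizontal) in bp on log axes, with equal widths on the line. Points lie on both sides of the line: 210 genes lie above it, and the 34 genes whose wider promoter differs between the replicates lie mostly near it.

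The order of the 2 promoters held between the replicates where both could be measured. Each replicate also has its own peak list, and 929 of the 933 promoters, 99.6%, overlapped a peak of replicate 1, against 99.9% of single-domain genes. In replicate 2 it was 837, 89.7%, against 96.1% of single-domain genes. The 96 promoters absent from replicate 2 had a median width of 620.5 bp and a median fold of 4.55, against 1864 bp and 18.0 for the 837 present. Upstream promoters were present in replicate 2 in 365 of 387 genes and downstream ones in 335. Both domains were seen and kept apart in both replicates in 305 genes, and in 271 of these, 88.9%, the same promoter was the wider in both (upstream in 146, downstream in 125). The higher fold was on the same side in 288, 94.4%. Of the 121 such genes whose widths differ over 2 times in the replicated list, 118 had the same wider promoter in both replicates. That list draws on both replicates, so this agreement is partly built in. The 34 genes that changed sides had a median absolute log2 ratio of 0.26 in the replicated list. The SD of a gene's log2 width ratio between the replicates had a median of 0.23 (n = 2 replicates, 305 genes).

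**Figure D2:**
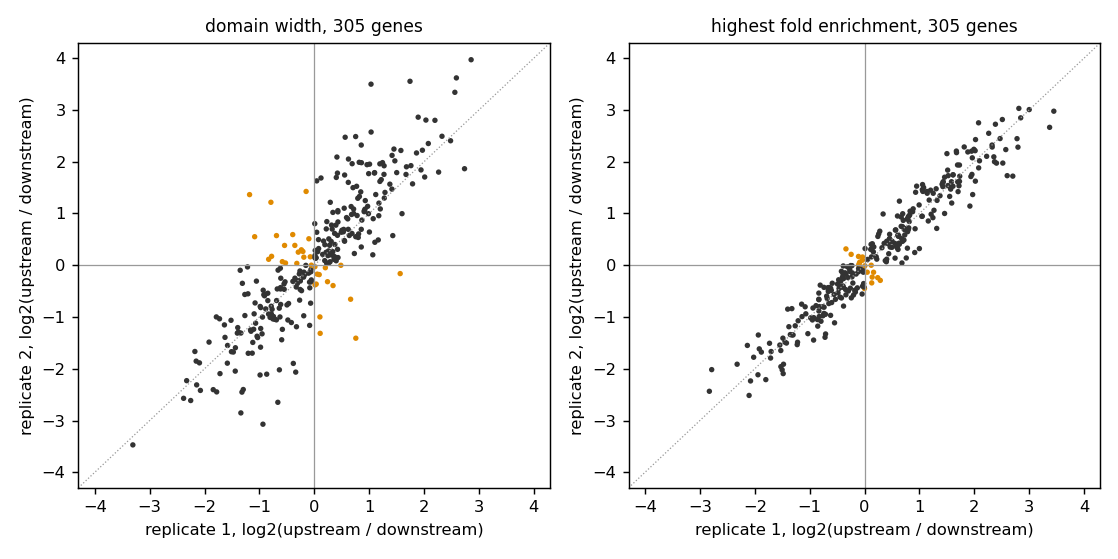
Log2 ratios of upstream over downstream in replicate 1 (horizontal) and replicate 2 (vertical) for the 305 genes with both domains separate in both replicates, for domain width (left) and highest fold (right). Orange points changed side: 34 of 305 for width, while the fold kept its side in 288.

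Isoforms served by the 2 promoters were read from the coding transcript ranked first at each, and the transcript ranked first is called the best. The ranking put annotation status before transcript support level. The upstream and downstream transcripts shared their start codon in 108 genes, so that only the leader differs at the 5′ end. In 159 genes, 41.1% (36.3 to 46.1), the downstream promoter opened a coding transcript with another start codon. In 41 of these the downstream start codon lay inside the upstream coding sequence, in frame in 40, and the downstream protein lacked a median of 74 residues at its N-terminus (range 3 to 1347). In 104 each side had a start codon of its own, and in 14 the upstream start codon lay inside the downstream coding sequence. In 78 genes the annotation gives a coding transcript at the upstream promoter only: the best transcript at the downstream one was a processed transcript in 41, a retained intron in 35 and a nonsense-mediated decay form in 2. In 22 the coding transcript was at the downstream promoter only. Most downstream starts, 339 or 87.6%, lay in an intron of the upstream transcript, 179 of them in intron 1 and 70 in intron 2.

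In the 3 largest isoform classes the wider side was split much as over all 387 genes, where it was upstream in 54.3%. The upstream domain was wider in 56 of 108 genes with a shared start codon, 51.9% (42.5 to 61.0), in 59 of 104 with a start codon on each side, 56.7% (47.1 to 65.8), and in 45 of 78 with a coding transcript upstream only, 57.7% (46.6 to 68.0). It was wider in 27 of 41 genes whose downstream start codon lies inside the upstream coding sequence, 65.9% (50.5 to 78.4), and in 7 of 22 with a coding transcript downstream only, 31.8% (16.4 to 52.7). The interval of the last class lies below the overall share, and the others hold it. The intervals take genes as independent, and the last class has only 22 genes that are themselves part of the 387. This is a description and no test.

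**Figure D3:**
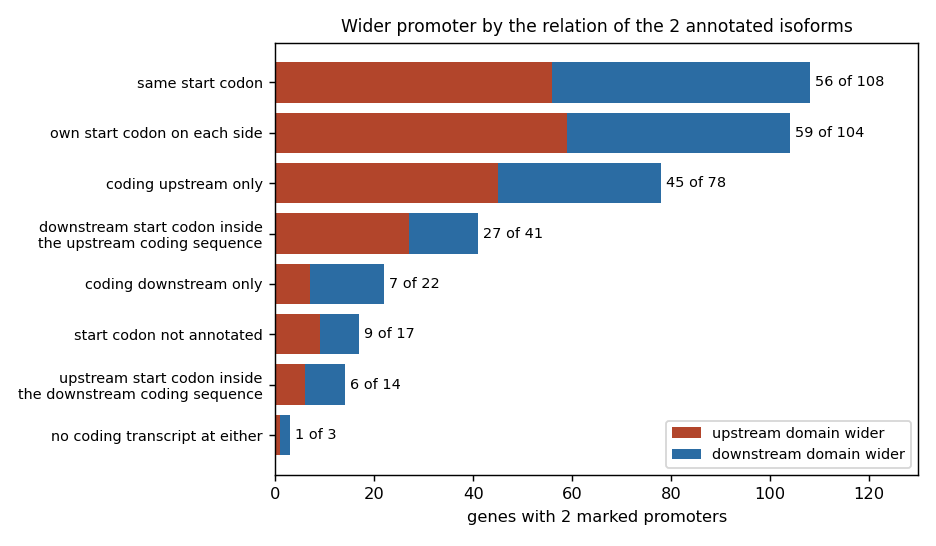
Bars count the 387 genes by how their upstream and downstream transcripts are related, split into genes whose upstream domain is wider (red) and those whose downstream domain is wider (blue). The number beside each bar is the count with the upstream domain wider, such as 56 of 108 with a shared start codon and 7 of 22 with a coding transcript downstream only.

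APPRIS marks the transcript taken as a gene's main protein form, the principal isoform. The promoter that serves it was more often the wider and the one of higher fold. In 196 genes only the upstream promoter served a principal isoform, and it was the wider in 120 and of higher fold in 129. In 83 genes only the downstream promoter did, and it was the wider in 51 and of higher fold in 48. Over both kinds the principal promoter was wider in 171 of 279 genes, 61.3% (55.5 to 66.8), and of higher fold in 177, 63.4% (57.6 to 68.9). In the replicates' own lists it was wider in 163 of 268 genes, 60.8%, and in 138 of 229, 60.3%, for replicates 1 and 2. Counted over all 387 genes, the wider domain served a principal isoform in 251, 64.9%, and the narrower one in 188, 48.6%. Where both promoters served a principal isoform, the upstream one was wider in 41 of 80. In 76 genes with the principal promoter upstream and 32 with it downstream, the wider domain sat at the other promoter. A wider domain can also take in more starts, since a start counts within 1 kb of its edges. The 2 promoters differed in number of transcripts in 322 genes, and the wider domain held more of them in 193. How far this bears on the principal isoform's side was not tested.

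CpG content separated the 2 positions more than width did. The ratio of observed to expected CpG over 500 bp on either side of the start had a median of 0.70 upstream and 0.42 downstream (387 each), against 0.73 at single-domain genes. A promoter was called island-like at a ratio of at least 0.6 with at least 50% G and C. The upstream promoter alone was island-like in 186 genes, the downstream one alone in 45, both in 65 and neither in 91. The island-like one of the 231 mixed genes was the wider in 144, 62.3% (55.9 to 68.3), and of higher fold in 162, 70.1% (63.9 to 75.7). In the own lists of replicates 1 and 2 it was wider in 64.7% of 224 and 61.8% of 186 genes. When the island-like promoter was downstream it was wider in 32 of 45 genes and of higher fold in 36. Without the island cutoff the link to width was weaker. The wider promoter had the higher CpG ratio in 213 of all 387 genes, 55% (50.1 to 59.9). Over all 933 promoters, the 423 island-like ones had a median width of 1951 bp and a median fold of 20.6, against 1491.5 bp and 13.2 for the other 510. At single-domain genes the same medians were 1974 bp and 25.5, against 1660 bp and 23.3. Island-like status and the principal isoform go together and were not separated here: 122 genes had both at the upstream promoter only and 26 both at the downstream only, and the upstream domain was wider in 81 and 4 of them. In the 24 genes with the island-like promoter upstream and the principal one downstream, the upstream domain was wider in 12. In the 5 with the principal promoter upstream and the island-like one downstream, it was wider in 1.

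**Figure D4:**
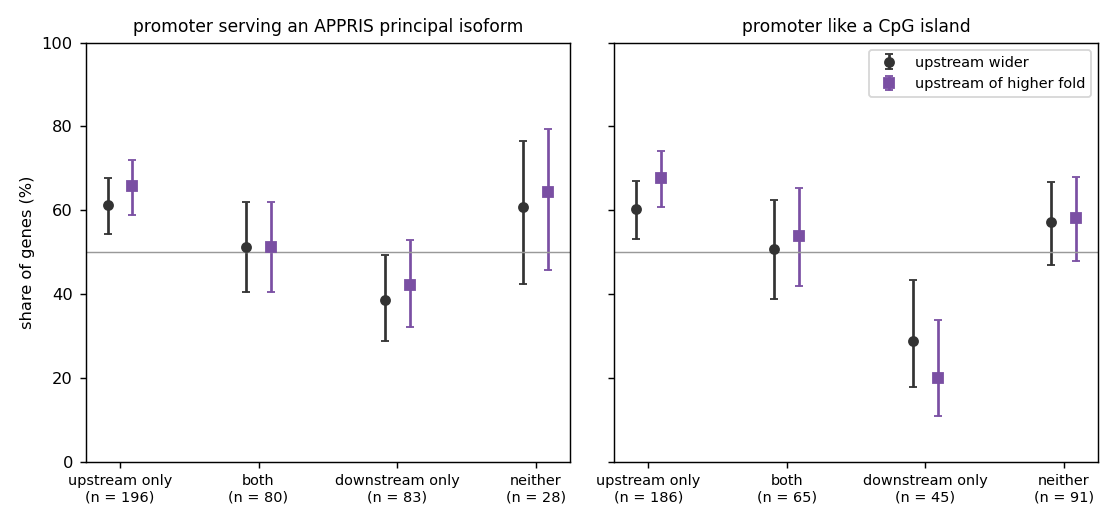
Share of genes (%) whose upstream promoter is wider (circles) or of higher fold (squares), with 95% Wilson intervals, by which promoter serves an APPRIS principal isoform (left) and by which is island-like (right). Shares lie above 50% where the feature is upstream only (61.2% and 60.2% for width) and below it where the feature is downstream only (38.6% and 28.9%).

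The binding motif of PU.1, the lineage factor of macrophages encoded by Spi1, was searched as GAGGAAGT on both strands from 250 bp before to 50 bp after the start. It occurred in 4.65% of the upstream and 5.68% of the downstream promoters, against 3.39% at single-domain genes. It occurred in 8.04% of the member promoters that are not island-like and in 2.36% of those that are. TATAAA, searched and counted separately in the same windows, occurred in 6.98% of upstream and 9.82% of downstream promoters, against 7.12% at single-domain genes. Each share is of 300-base windows, and a match is only a run of letters.

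Genes long known for alternative promoters show what the classes look like. From a list of 50 such genes, 39 had a usable start at a domain and 14 met the rule, 35.9%, against 4.81% of all such coding genes. The list was drawn up for this property, so its share is no independent evidence. Of the 10 with 2 marked promoters, 4 had the wider domain upstream and 6 downstream, with a median log2 width ratio of -0.11.

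Runx1, a master regulator of blood cell formation, is transcribed from a distal promoter, P1, and a proximal one, P2, whose proteins begin differently. The 2 starts are 130024 bp apart. P1 spanned 3700 bp (3727 and 3044 bp in replicates 1 and 2) at a fold of 25.3, and P2 spanned 2861 bp (5426 and 2335 bp) at a fold of 12.6. P1 was of higher fold in both replicates (48.8 against 18.3, and 21.2 against 7.18), but the wider domain was P2 in replicate 1 and P1 in replicate 2. Here the CpG-poor promoter had the stronger peak: the CpG ratio was 0.31 at P1 and 0.81 at P2. P1 serves the 465-residue principal isoform and P2 a form of 451 residues with a start codon of its own.

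The gene with the widest domain was Zeb2, a zinc finger repressor that shapes myeloid identity. Its upstream domain spanned 3067 bp (3143 and 2433 bp), and its downstream domain, 4116 bp further on by start, spanned 8430 bp (8515 and 7345 bp). The downstream domain was thus wider in both replicates, log2 ratio -1.52 ± 0.11 (SD, n = 2). Both promoters serve the same protein of 1215 residues from the same start codon. The starts of 4 noncoding genes also lie at the downstream domain, and the mark cannot be divided among them.

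Nr3c1, the glucocorticoid receptor, had the most unequal pair in the downstream direction, 308 bp at a fold of 2.59 upstream and 3845 bp at a fold of 21.1 downstream. The upstream domain overlapped no peak of either replicate's own list, and the downstream one spanned 3909 bp in replicate 1 and 922 bp in replicate 2. The downstream, CpG-rich promoter opens 8 coding transcripts, including the principal isoform of 792 residues.

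Pik3r1 encodes the regulatory subunit p85 alpha of phosphoinositide 3-kinase and, from inner promoters, shorter forms. Its upstream domain was wider, 3684 bp (3689 and 3323 bp) against 1195 bp (1158 and 985 bp), and the log2 ratio was 1.71 ± 0.06 (SD, n = 2). The downstream start lies in intron 7 of the 724-residue form, and its best transcript is annotated without its end.

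Crem, the cyclic AMP response element modulator, yields activators from its first promoter and a short repressor from an inner one. The upstream domain spanned 2573 bp (2641 and 2432 bp) at a fold of 37.1, and the downstream domain 1828 bp (1822 and 1505 bp) at a fold of 15.5. The forms served had 245 and 125 residues, with a start codon each. At Rara, retinoic acid receptor alpha, the widths were near equal, 2255 bp upstream and 2320 bp downstream, and the wider side changed between replicates (log2 ratio -0.83 in replicate 1 and 0.11 in replicate 2).

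E protein genes Tcf4 and Tcf12 both gave a longer upstream form, 670 and 706 residues, and a shorter downstream form, 511 and 536 residues. At Tcf4 the downstream peak was the higher, with a fold of 16.6 upstream and 32.9 downstream, while its widths, 3723 and 4439 bp, changed order between replicates (3736 and 4574 bp in replicate 1, 3576 and 3001 bp in replicate 2). At Tcf12 the upstream one was, with folds of 14.8 and 9.69. Dnmt3a had a downstream domain that was wider in both replicates, log2 ratio -0.90 ± 0.20 (SD, n = 2). Its downstream transcript starts in frame 74 residues into the full-length protein of 908 residues and is annotated without its end. Tfeb had domains whose order of width changed between replicates (2165 and 2500 bp, then 1858 and 1545 bp) but a fold of 23.7 upstream and 4.36 downstream, with the same start codon.

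Kdm2b, Pde4d and Ptpn6 had 3 marked promoters and Foxp1 had 4. Kdm2b, a histone H3 lysine 36 demethylase, had its widest domain first (3626 bp) and its highest fold last (23.1, against 18.9 and 10.2), where a 776-residue form begins against 1309 residues from the first promoter. Pde4d, a cyclic AMP phosphodiesterase, had folds of 7.10, 12.4 and 32.4 in order along the gene, while the widths ran the other way, 2338, 1619 and 1609 bp. In Ptpn6, the phosphatase SHP-1, the second promoter stood out with 1997 bp at a fold of 40.7, against 850 bp at 5.68 and 414 bp at 5.10 at the promoters on either side. Its last promoter lies in the same joined domain as the second in replicate 1 and is absent from replicate 2. Foxp1, a forkhead repressor, had broad domains at its first and last marked promoters, 4706 and 4756 bp, and narrow ones between, 947 and 1476 bp, of which the second promoter's was absent from replicate 2.

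**Figure D5:**
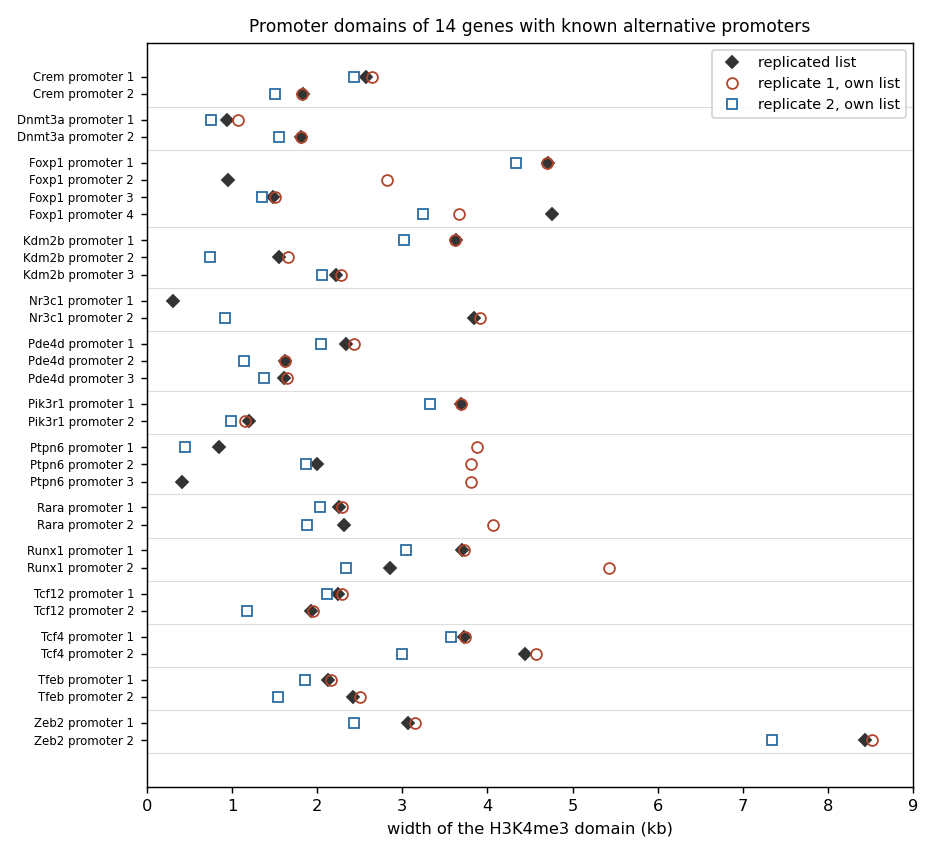
Domain widths in kb for the marked promoters of 14 genes known for alternative promoters, numbered from the 5′ end of the gene, in the replicated list (diamonds) and in the own lists of replicate 1 (circles) and replicate 2 (squares). Missing symbols are promoters absent from that list, as at the first promoter of Nr3c1, and the last 2 promoters of Ptpn6 share 1 domain in replicate 1.

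The most unequal pairs with the upstream domain wider were Zbtb7b, Mnt, Actn4, Ubr2, Arid5b and Anp32a. Arid5b, a DNA-binding partner of a histone demethylase, had 5624 bp upstream (5569 and 5409 bp) and 729 bp downstream (768 and 345 bp). The upstream domain serves a form of 1188 residues and the downstream one a form of 945. Anp32a, an acidic nuclear phosphoprotein, had 5270 bp upstream (5189 and 5285 bp) and 716 bp downstream (862 and 430 bp), where only a retained intron starts. Zbtb7b, which encodes the zinc finger factor ThPOK, had 5771 bp (7472 and 5709 bp) and 467 bp, and Ubr2, a ubiquitin ligase of the N-degron pathway, had 2781 bp and 334 bp. The narrow domains of Zbtb7b and Ubr2 overlapped no peak of either replicate's own list. Actn4's narrow domain was absent from replicate 2. Mnt, an antagonist of Myc, had 4429 and 456 bp, and its log2 ratio varied between replicates, 1.03 in replicate 1 and 3.50 in replicate 2.

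The most unequal pairs with the downstream domain wider were Nr3c1, Ptpre, Sptbn1, Psd4, Jmjd1c and Fmn1. Ptpre encodes a receptor tyrosine phosphatase and, from an inner promoter, a cytosolic form. Its upstream domain spanned 462 bp (529 and 277 bp) at a fold of 7.60, and its downstream domain 3954 bp (5235 and 3072 bp) at a fold of 25.1, for a log2 ratio of -3.39 ± 0.12 over the replicates (SD, n = 2). The upstream promoter serves the principal isoform of 699 residues and the downstream one the form of 642. Jmjd1c, of the jumonji demethylase family, had 667 bp upstream and 4362 bp downstream, and its downstream protein starts in frame 181 residues in. Psd4, an exchange factor for Arf6, had 426 bp upstream and 3274 bp downstream with the same start codon and the same 1005 residues. Sptbn1, a beta-spectrin, had 387 and 3290 bp, and Fmn1, a formin, had 544 and 3325 bp. The narrow domains of Psd4, Sptbn1 and Fmn1 were absent from replicate 2. Among all 170 genes with widths over 2 times apart, the narrower promoter was absent from replicate 2 in 47 and the wider one in 0.

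By fold, the pairs most in favour of the upstream promoter were Tlcd2, Actn4, Ttll5 and Zbtb7b. Tlcd2 had folds of 48.3 and 3.34 and Ttll5, a tubulin glutamylase, 38.4 and 3.16, and in both the coding transcripts start only at the weaker, downstream promoter, which was absent from replicate 2. Those most in favour of the downstream one were Nr3c1, Crip1 (4.93 and 37.3), Adipor2 and Pwp1 (4.34 and 29.2). The weaker promoters of Nr3c1, Crip1 and Pwp1 were absent from replicate 2. Adipor2, an adiponectin receptor, had folds of 4.01 and 27.7, and the stronger promoter was island-like, with a CpG ratio of 1.09, against 0.33 upstream. Both of its promoters serve the same protein of 386 residues.

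Smarca2, Maml2, Cntrl and Phc2 were among the 5 in-frame pairs with the longest missing N-terminal stretch. Smarca2 is an ATPase of the SWI/SNF remodelling complex, and its downstream promoter, in intron 27, opens a form that lacks 1347 of 1583 residues. Its upstream domain was the wider, 4520 bp (4451 and 4572 bp) against 2377 bp (2345 and 2157 bp), while the folds were close, 22.5 and 23.4. Maml2, a Notch coactivator, lacks 756 residues in the downstream form, whose domain (1000 bp, fold 3.89) was absent from replicate 2. Cntrl, a centriole protein, lacks 553, with 2299 bp upstream and 1603 bp downstream. In Phc2, a Polycomb protein, the promoter of the short form was the stronger, with 711 bp at a fold of 8.61 upstream and 3522 bp at 27.4 downstream, where 527 residues are missing.

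Genes with more than 2 marked promoters had no set place for the widest one. In these 51 genes the widest domain was the first in 20, the last in 15 and between them in 16. Plec, which encodes the cytolinker plectin and is known for its many first exons, had 4 domains of 1645, 1609, 3107 and 6099 bp in order, with folds of 21.1, 9.78, 5.76 and 19.9. The widest, at the last marked promoter, measured 6138 bp in replicate 1 and 2951 bp in replicate 2. Its 4 promoters serve forms of 4534 to 4686 residues. Arap1, a GTPase-activating protein for Arf, had its highest fold first (35.8, against 13.3, 21.6 and 11.7). Oxr1, an oxidation resistance gene, had its principal isoform of 216 residues at the last and weakest of 4 promoters (fold 10.9), while the first and the third, at folds of 19.6 and 25.5, serve forms of 866 and 832 residues. Rcbtb2 also had 4, and its principal isoform started at the third, the one of highest fold (14.2, against 4.80, 4.68 and 5.68). Mbnl1, a splicing regulator, had 3 domains, of which the first spanned 6165 bp and the second, with the principal isoform, 4736 bp. Not all of the Mbnl1 domains were present in replicate 2. Lrrfip1 had 1844 bp upstream and 6172 bp (6548 and 3431 bp) downstream, the widest domain here after that of Zeb2.

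The share of genes that met the rule differed among lists of genes by function, and no test of these differences was made. Of 68 marked myeloid and immune transcription factors, 11 met the rule, 16.2%. Kinases, phosphatases and phosphoinositide enzymes gave 10 of 75, 13.3%, chromatin regulators 7 of 64, 10.9%, and small GTPases with their regulators 24 of 236, 10.2%. Zinc finger genes gave 13 of 355, 3.66%, solute carriers 4 of 164, 2.44%, and macrophage surface receptors with lysosomal genes 2 of 90, 2.22%. Over all marked coding genes the share was 4.81%. The lists were chosen with earlier results of these data known. The shares also count marked genes without 2 usable starts over 3 kb apart. Gene length and the number of annotated starts were not matched, so the shares do not show enrichment by function.

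Spi1, the gene of PU.1, had 2 domains of like width, 3463 bp (3417 and 2886 bp) and 3185 bp (3390 and 2943 bp), with folds of 8.91 and 37.6, and the wider side changed between the replicates. The upstream one lies 13688 bp before the main start, at the starts of 2 annotated transcripts. A well-studied enhancer of this gene is known upstream of it. Whether the upstream domain marks a promoter or that enhancer was not tested. The downstream one serves the principal isoform of 272 residues. Foxn3, a forkhead factor, had 3484 and 2376 bp, and Creb5, a CREB family factor, had 3078 and 2423 bp, with the order turned in replicate 2 (1463 and 1921 bp). The 11 genes of the list had the wider domain upstream in 6 and downstream in 5, and in 3 of them, Spi1, Creb5 and Elf2, the wider side changed between replicates. Elf2 was named after its values were seen.

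All 6 chromatin regulators with 2 marked promoters had the wider domain upstream, against 54.3% of all 387 genes, with a median log2 ratio of 1.53, against 0.12. Arid5b, Hdac5, Kdm2a, Smarca2 and Tet3 were among them. In all 6 the downstream promoter opens a transcript with another start codon, against 41.1% of all 387. Hdac5 and Kdm2a were named after their values were seen, and no test was made on so few genes. Tet3, a DNA demethylase, had 4758 bp upstream and 772 bp downstream, where the first 135 of 1803 residues are missing. Jmjd1c, Dnmt3a and Phc2, which also act on chromatin but are not on that list, had the wider domain downstream.

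Small GTPase regulators had the wider domain upstream in 14 of 20 genes, 70% (48.1 to 85.5), an interval that holds the 54.3% of all 387 genes. Their median log2 ratio was 0.58. Arhgef2, the exchange factor GEF-H1 of RhoA, went the other way, with 1219 bp upstream and 4669 bp downstream at the principal isoform. In Rin2, an exchange factor of Rab5, none of the 3 marked promoters opens an annotated coding transcript. Of the kinase list, Dgkz, a diacylglycerol kinase, had 4238 and 3460 bp, and Prkacb, a catalytic subunit of protein kinase A, had 2292 and 2950 bp, near equal in replicate 2 (2125 and 2073 bp). Pik3cd, the phosphoinositide 3-kinase subunit p110 delta, had 3455 and 3332 bp in domains that were 1 domain of 8154 bp in replicate 1.

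Both surface receptor genes had CpG-poor promoters at each position. Cd36, a scavenger receptor, had 2414 bp at a fold of 5.29 upstream and 2796 bp at 8.08 downstream, with CpG ratios of 0.09 and 0.14 and the same protein of 472 residues. Clec4d, a C-type lectin receptor, had 2479 bp at 5.76 upstream and 2673 bp at 14.3 downstream, and its wider side changed between replicates (2484 and 2835 bp, then 2092 and 1878 bp). Zbtb20 and Zfp385a had 3 marked promoters each, with the widest first in Zbtb20 (2766 bp) and second in Zfp385a (2424 bp). Not every promoter of Zbtb20 was present in replicate 2. Of the solute carriers, Slc3a2, the heavy chain of CD98, had 2970 and 4244 bp, and its downstream form lacks 39 residues. Slc27a1, a fatty acid transporter, had 2175 and 3048 bp. Slc45a4 had 2782 and 473 bp, with the narrow one absent from replicate 2.

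Some members rest on thin ground. The genes nearest inside the 3 kb limit were Cdk2ap1 (starts 3017 bp apart, widths 554 and 1262 bp), Bscl2 (3068 bp, 921 and 988 bp) and Myl6b (3129 bp, 1783 and 3615 bp). Those nearest outside were Zfp367 (2988 bp, 785 and 1739 bp), Wac (2880 bp, 904 and 1127 bp) and Zfp790 (2877 bp, 2257 and 1049 bp). In 8 genes the best transcripts at the 2 domains start under 3 kb apart and other starts give the spacing. A noncoding gene also starts at 134 of the 933 promoters, 14.4%, and 17 promoters rest only on transcripts annotated without a complete start. The 2 domains were joined into 1 in replicate 1 in 9 genes. In 4 genes, Aftph, Nr3c1, Ubr2 and Zbtb7b, 1 promoter overlapped no peak of either replicate's own list.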

How the data were processed

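H3K4me3 ChIP-seq peaks of 2 replicates (1 group) were used as deposited. Per the text files deposited beside the peaks, the authors called peaks from each replicate, from the pooled alignments, and as a replicated list; 16890 of the 16957 replicated peaks have the coordinates and fold of a pooled peak. Each peak carries the authors' fold, a ratio whose denominator is not stated. It also carries −log10 p and −log10 q values that the authors computed in peak calling before they deposited the lists, per the file layout. Aligner, peak caller and settings: not given in the sources used here. No read counts were used, so depth and its precision are unknown. Folds were compared only within a list.

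Peaks within 1000 bp were joined. Starts came from GENCODE M21 on 21 chromosomes and sequence from RefSeq's GRCm38.p6, the assembly also called mm10 that the labels name. 1 transcript stood for each promoter, ranked by APPRIS, CCDS, GENCODE basic, support level and coding length. A replicate's domain counted at a promoter from an overlap of 1 bp. Python 3.11.15, numpy 2.4.6, scipy 1.17.1, pysam 0.24.0 and samtools 1.23.1 were used. The code of the rule was tested on simulated data: 200 of 200 genes with planted peaks were returned, with the wider side as planted. The planted peaks were single, clearly unequal in width and centred on starts well over 3 kb apart, with no other peaks present. The spacing limit, the window, the joining and near-equal widths were thus not tried.

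The genes and gene lists were chosen with earlier results of these data known. Genes were named by rule: known alternative promoters, the extremes of the width ratio (6 each way) and of the fold ratio (4 each way), the 5 with most promoters, the 5 with the widest domains, the 5 with the longest missing N-terminus, 3 on either side of the 3 kb limit, and the 3 with the largest summed width of each list; chromatin regulators with 2 promoters and Aftph were named after their values were seen. Some genes that the rule names are not reported here. Alternatives changed 1 choice at a time.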

Additional observations from a re-analysis of the deposited data

How the results depend on the processing

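Across 16 alternatives to the list, joining, window, spacing and annotation, the number of genes ran from 147 to 549. It was 147 with the 10000 peaks of highest −log10 q and 235 with GENCODE basic transcripts only, against 438 as reported. The share with the wider domain upstream fell to 47.4% with no joining of peaks, to 44.8% with the 10000 peaks and to 49.4% with the widest single peak of the domain, below 50% in all 3. The median log2 width ratio was -0.078 with no joining and -0.16 with the 10000 peaks. With the 10000 peaks, the upstream peak was of higher fold in 51.0% and the wider domain served a principal isoform in 57.3%. That last share was 73.1% with basic transcripts, against 64.9% as reported. Another start codon downstream was found in 34.1% with starts within 2.5 kb of a domain, 46.7% with starts over 10 kb apart, 58.7% with basic transcripts and 58.2% with protein-coding transcripts only. With 1000 bp on either side, the median CpG ratio was 0.60 upstream and 0.36 downstream. The cause of these shifts was not tested. Leaving out 1 replicate (using the other's own list) gave 363 to 538 genes, a median log2 ratio of 0.14 to 0.29, 54.7 to 58.5% with the upstream domain wider, 54.4 to 59.7% with it of higher fold, 64.1 to 65.3% with the wider domain at a principal isoform and 39.2 to 45.6% with another start codon. The other 100 of 117 recomputed values stayed within the interval, or within 1.5 times the count, of the reported ones. The alternatives without close pairs, without noncoding starts and with only promoters separate in both replicates were chosen after seeing the data. No paired analysis was possible because there is 1 group. Peak lists hold no depth, so a promoter absent from a list may lie below its threshold.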
